A study of Mus musculus with 12 samples.

Results

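The comparison described here set skeletal muscle of mice on a high-fat diet that had been injected with vehicle against skeletal muscle of mice on regular chow, by RNA sequencing. It used 6 of the 12 libraries of the study: Vehicle 15, Vehicle 23 and Vehicle 55 against Chow 8, Chow 17 and Chow 19, chosen by the group and number in their titles. All mice were of the strain C57BL/6N, with no mutation or transgene in the labels, and were 6 weeks old when the diets began. The Chow mice had regular chow for 18 weeks and no injection. The Vehicle mice had a high-fat diet for the same 18 weeks and then an intraperitoneal injection of 30% DMSO in corn oil once a day for 4 days. The study's other groups, 3 libraries each, were uninjected mice given that diet (HFD) and mice given it that were injected with PCN, a pregnane X receptor agonist, at 50 mg/kg. The Vehicle and Chow groups therefore differed in diet and in injections, and their counts lie in separate deposited tables, so diet, injection and table cannot be told apart within this comparison. The HFD libraries, which share the diet of the Vehicle libraries, lie in the same table as Chow and are set beside it. Vehicle and HFD thus lie in separate tables too, so injection and table cannot be told apart in Vehicle against HFD. The labels do not name the muscle, the time of day at which it was taken or whether each library came from a separate mouse, so p-values measure only the spread between these samples.

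Skeletal muscle takes up much of the glucose and fat that a meal brings and switches between them through enzymes such as pyruvate dehydrogenase kinase, which holds back glucose oxidation when fat is plentiful. Its fibres sit in a collagen and fibrillin matrix made mainly by fibroblasts, and both the fuel genes and the matrix genes are known to respond to diet, activity and damage. Muscle also carries its own circadian clock, in which ARNTL (BMAL1) with CLOCK or NPAS2 drives the period and cryptochrome genes that repress it, and the output factors DBP, TEF and HLF carry the rhythm to other genes.

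Total counts ran from 12770308 to 18920359 in Chow and from 16790642 to 17628784 in Vehicle, and 21976 genes were present in both tables. The 12 defining markers of muscle fibres were all detected and none differed at an unadjusted p under 0.05 (median log2 fold change -0.15), so all 6 libraries carried the RNA of muscle fibres. Libraries of a group differed by far more than counting noise. The chi-square per gene was 27.8 between Vehicle 15 and Vehicle 23 but 109 and 95.4 between each of them and Vehicle 55, and in Chow it ran from 30.3 to 84.3. The libraries also differed in slow-fibre genes, of which 6 were tested, the slow myosin gene Myh7 not among them. Fibre type itself was not measured. The mean log2 CPM (counts scaled to a common library size) of the 6 genes was 3.59 in Chow 8, 4.89 in Chow 17 and 5.04 in Chow 19, and 1.90, 3.18 and 4.38 in Vehicle 15, 23 and 55. Results that rest on these libraries are given with and without them below.

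Of 12739 genes tested with edgeR's quasi-likelihood test, 5 passed a Benjamini-Hochberg adjusted p of 0.05, which is 0.0392% of the genes tested. Fbp2, a muscle enzyme of gluconeogenesis and glycogen synthesis, rose (1 gene, 0.00785%). Fbn1 and Vcan, which encode the matrix proteins fibrillin-1 and versican, fell, as did Tnfrsf12a, the receptor of the cytokine TWEAK, and Maff, a small bZIP transcription factor (4 genes, 0.0314%). The number of calls depended strongly on single libraries: it was 26 without Vehicle 55, 2 without Vehicle 23 (567 genes at an unadjusted p under 0.05) and 0 in edgeR's test without Vehicle 15 (673 genes at an unadjusted p under 0.05), while DESeq2 called 96 genes on all 6 libraries, the 5 included. Set beside this, the uninjected HFD libraries against the same Chow libraries gave 0 calls of 12625 genes (0%) in edgeR's test, with 984 genes (7.79%) at an unadjusted p under 0.05 and 40 calls by DESeq2. Without Chow 19 that comparison gave 245 calls, and without Chow 8 it gave 1. Vehicle against HFD, the direct comparison of injected with uninjected mice on the high-fat diet, again set libraries of separate tables against each other. It gave 193 calls of 12746 genes (1.51%), and 0 without HFD 30 (1494 genes at an unadjusted p under 0.05) or without Vehicle 23 (1431 such genes). Its count was 9, 14 and 48 without Vehicle 15, HFD 4 and HFD 38, and 1180 without Vehicle 55.

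**Figure D1:**
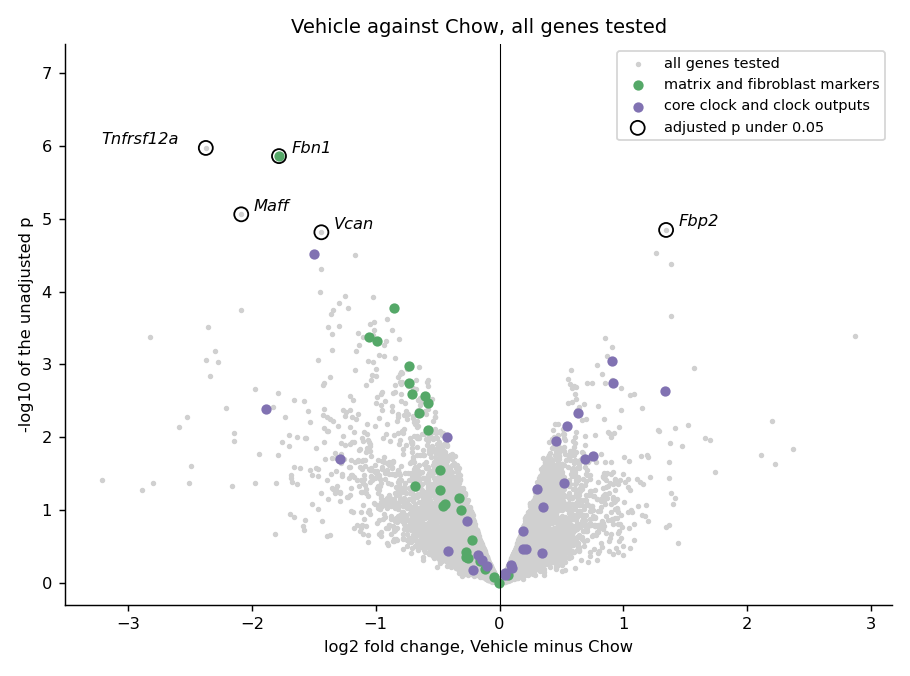
Each point is 1 of the 12739 genes tested in Vehicle against Chow, with the log2 fold change on the x axis and -log10 of the unadjusted p on the y axis, matrix and fibroblast markers in green, core clock genes and clock outputs in purple, and the 5 genes past the adjusted threshold circled. Matrix markers lie almost wholly to the left of 0, and clock genes lie on both sides.

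Tnfrsf12a lies on chromosome 17 (GRCm38, 23675445 to 23677468) and encodes a receptor that is induced in injured or denervated muscle. It stood at 27.2, 37.3 and 41.8 CPM in Chow 8, 17 and 19, against 5.39, 8.79 and 6.34 CPM in Vehicle 15, 23 and 55. Every Vehicle library lay below every Chow library, and the log2 fold change was -2.37 ± 0.23 (SE; edgeR adjusted p = 0.00879). The HFD libraries held 6.95, 21.4 and 10.1 CPM, also all below Chow, though that difference of -1.46 did not pass the threshold (edgeR adjusted p = 0.56) and neither did Vehicle against HFD (-0.91, adjusted p = 0.34).

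Maff lies on chromosome 15 (79346621 to 79359076). Its level was 26.5, 13.9 and 17.3 CPM in Chow against 4.92, 3.80 and 4.83 CPM in Vehicle, with no overlap and a log2 fold change of -2.09 ± 0.25 (edgeR adjusted p = 0.0369). The HFD libraries, at 14.1, 13.5 and 10.9 CPM, reached into the Chow range. Maff was lower in Vehicle than in HFD by the direct test as well (-1.50 ± 0.18, edgeR adjusted p = 0.0113), as were 0.989% of all genes, so of the 5 genes it is the only member that also passed between the injected and uninjected mice on the high-fat diet.

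Fbn1 lies on chromosome 2 (125300594 to 125507993) and its product is the main component of the microfibrils around fibres. The 3 Chow libraries were close together at 138, 131 and 134 CPM, and the Vehicle libraries stood at 41.2, 46.0 and 30.0 CPM. The log2 fold change was -1.78 ± 0.18 (edgeR adjusted p = 0.00879). In HFD the libraries spread from 67.6 to 139 CPM, the highest of them just above the Chow libraries, and Vehicle against HFD gave -1.35 ± 0.28 (adjusted p = 0.0621). Vcan, on chromosome 13 (89655312 to 89742509), encodes a proteoglycan of loose, remodelling matrix. It stood at 26.5, 33.9 and 28.0 CPM in Chow against 11.5, 12.7 and 8.35 CPM in Vehicle, again without overlap (log2 fold change -1.44 ± 0.19, edgeR adjusted p = 0.0390).

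Fbp2, on chromosome 13 (62836877 to 62858422), encodes the muscle form of fructose-1,6-bisphosphatase. The Chow libraries lay within 33.0 to 36.1 CPM and the Vehicle libraries at 80.8, 108 and 72.02 CPM. Each Vehicle library was above every Chow library, and the log2 fold change was 1.35 ± 0.17 (edgeR adjusted p = 0.0390). The HFD libraries lay between the groups at 54.1, 41.0 and 56.2 CPM, a difference from Chow of 0.57 ± 0.15 that did not pass (adjusted p = 0.47).

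The PCN libraries, which were also on the high-fat diet and injected but were not tested here, held these 5 genes at levels near the Vehicle libraries. Fbp2 was at 89.7 to 97.2 CPM there, Maff at 3.62 to 6.69 CPM and Fbn1 at 20.4 to 50.5 CPM. Over 13 alternative fits or left-out libraries, the direction of all 5 genes was the same. Tnfrsf12a and Fbn1 passed in 10 of the 13, losing the call without Vehicle 15 (adjusted p = 0.121 and 0.123), without Chow 17 and Chow 19 together and with all 12 libraries in 1 fit. Maff passed in 9, losing it without Vehicle 15, Vehicle 23 or Chow 19 or with a minimum count of 30. Fbp2 passed in 5 and Vcan in 4, and each lost the call when any library other than Vehicle 55 was left out.

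**Figure D2:**
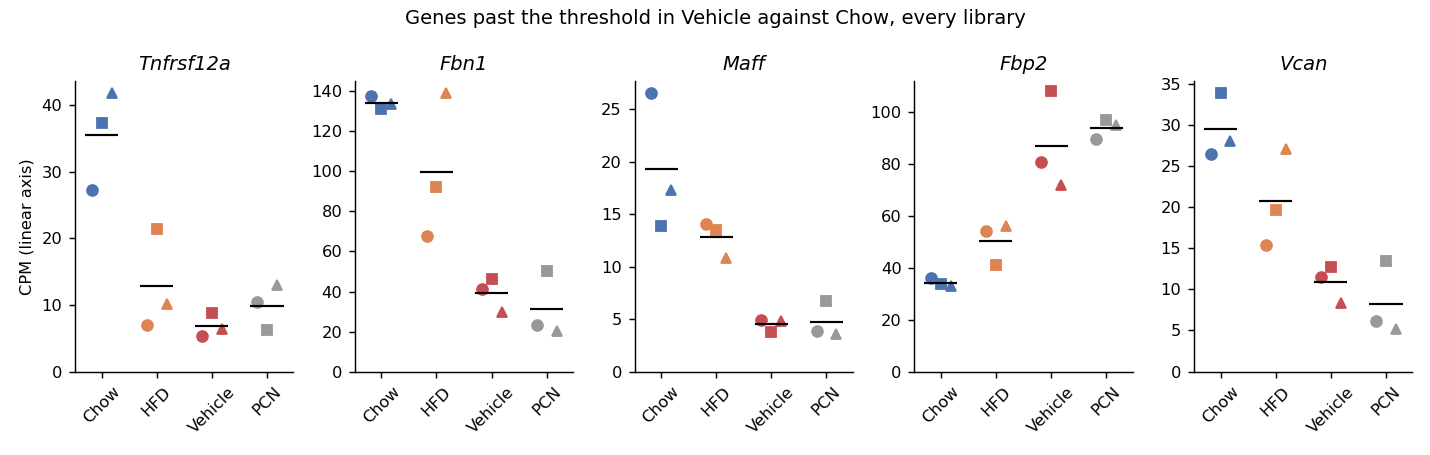
CPM of the 5 genes on linear axes that start at 0, with 1 point per library (circle, square and triangle for the libraries of a group in the order of their numbers) and a bar at the group mean. Chow and Vehicle do not overlap in any panel, and the PCN points lie in or near the range of Vehicle, as for Fbp2 at 89.7 to 97.2 CPM.

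A further 5 genes had an adjusted p between 0.05 and 0.1, which made 10 genes or 0.0785% under 0.1, and are named after their values were seen. Mid1ip1, a regulator of acetyl-CoA carboxylase, stood at a log2 fold change of 1.26 and the mitochondrial tryptophan tRNA mt-Tw at 1.38. Arntl stood at -1.50, Col5a3, a chain of collagen V, at -1.17 and the neuronal and wound-repair gene Nrep at -1.44.

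The matrix list as a whole was lower in Vehicle than in Chow. Of 27 tested markers of extracellular matrix and fibroblasts, 26 had a fitted change below 0, against 50.9% of all genes, and the median was -0.48, against -0.01 over all genes tested. Only Fbn1 passed the adjusted threshold. In 12 of the 27 all Vehicle libraries lay below all Chow libraries, where 7.21% of all genes did, and 13 had an unadjusted p under 0.05 and lay lower, where 4.88% did. In bulk tissue, fewer fibroblasts and less RNA per fibroblast cannot be told apart.

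Fn1, fibronectin, stood at 113, 126 and 109 CPM in Chow against 71.0, 65.0 and 56.5 CPM in Vehicle (-0.86 ± 0.15, edgeR adjusted p = 0.126). Col3a1, the collagen of reticular fibres, was at 192, 138 and 141 CPM and at 83.7, 86.0 and 56.9 CPM (-1.05 ± 0.20, adjusted p = 0.153). Mfap5, a microfibril protein that binds fibrillin, was at 8.63 to 9.56 CPM and at 3.65 to 5.59 CPM (-0.99 ± 0.20, adjusted p = 0.158). None of these 3 passed, and in each of them the groups did not overlap.

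Matrix levels in the uninjected high-fat libraries were not lower than in Chow by list median, but these libraries differed. The mean log2 CPM of the list was 5.35, 5.39 and 6.16 in HFD 4, 30 and 38, against 5.76, 5.58 and 5.32 in Chow 8, 17 and 19. HFD 4 and HFD 30 thus lay below Chow 8 and Chow 17. In HFD against Chow, which shares the Chow libraries, 17 of 28 tested matrix markers had a fitted change above 0, as did 49% of all genes, the median was 0.14, and 0 passed edgeR's test (3 higher at an unadjusted p under 0.05, as were 3.63% of all genes). In the direct comparison of Vehicle with HFD, 24 of 27 were lower, as were 50.1% of all genes, and the median was -0.71. Col1a1, a chain of collagen I named after its values were seen, was the single matrix marker past the threshold there. It stood at 51.0, 34.7 and 48.8 CPM in Chow, 54.2, 54.4 and 93.2 CPM in HFD and 29.7, 27.2 and 23.9 CPM in Vehicle (Vehicle minus HFD -1.32 ± 0.22, edgeR adjusted p = 0.0345). HFD 38 held the highest mean log2 CPM of the matrix list (6.16, against 4.85 to 5.76 in the other libraries of Chow, HFD and Vehicle) and of the adipocyte list (4.83). The part of that library in the HFD against Chow and Vehicle against HFD medians was not tested.

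Tendon genes were mostly lower too. Of 8 tested, 7 were lower in Vehicle than in Chow and the median was -0.75, with 4 lower at an unadjusted p under 0.05 (4.88% of all genes were) and 0 past edgeR's adjusted threshold. Thbs4, a thrombospondin of tendon and muscle matrix, stood at 40.9, 49.8 and 61.8 CPM in Chow against 25.9, 27.3 and 35.0 CPM in Vehicle. Kera, keratocan, was at 1.22 to 1.87 CPM and at 0.16 to 0.71 CPM. The Vehicle libraries lay below Chow for both genes. Over the 13 alternatives the matrix median stayed between -0.73, without Chow 17 and Chow 19, and -0.32, without Chow 8, and the tendon median between -1.16, without Vehicle 55, and -0.49.

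Signal-responsive genes were also mostly lower in Vehicle. Of 23 tested immediate early genes, which are switched on within minutes by contraction, stress or growth factors, 20 were lower than in Chow with a median of -0.52, and 8 did not overlap in that direction, where 7.21% of all genes did. Maff was the 1 member past the threshold. Btg2, an antiproliferative gene, stood at 89.5, 79.1 and 140 CPM in Chow against 47.4, 40.9 and 29.6 CPM in Vehicle (-1.39 ± 0.25, edgeR adjusted p = 0.152). Junb, an AP-1 subunit whose gene overlaps Prdx2 on the other strand, was at 56.3, 27.8 and 135 CPM and at 19.7, 13.6 and 16.3 CPM. The Chow libraries of Junb were far apart, with Chow 19 the highest, while the Vehicle libraries were close together and below all of Chow. The median of the list was -0.13 in HFD against Chow, and over the alternatives it ranged from -0.77 to -0.16 in Vehicle against Chow, the last without Chow 19.

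Of 22 regulators of mitochondrial biogenesis and of the response to exercise, 17 were lower in Vehicle, with a median of -0.42 and 0 past edgeR's threshold (5 lower at an unadjusted p under 0.05, as were 4.88% of all genes). Ppargc1a, the coactivator PGC-1alpha that drives mitochondrial gene expression, stood at 184, 53.0 and 94.6 CPM in Chow, 77.4, 89.7 and 72.1 CPM in HFD and 33.9, 32.0 and 52.1 CPM in Vehicle. The highest Vehicle library lay just below the lowest Chow library (Vehicle minus Chow -1.49 ± 0.45, edgeR adjusted p = 0.531). Ppargc1a passed the direct test of Vehicle against HFD (-1.02 ± 0.19, edgeR adjusted p = 0.0424). Perm1, a muscle-specific partner of that coactivator, stood at 156, 238 and 263 CPM in Chow against 55.1, 95.0 and 129 CPM in Vehicle (-1.24 ± 0.32, adjusted p = 0.366). Nr4a3, an exercise-induced nuclear receptor, was at 74.8, 17.4 and 47.0 CPM and at 14.6, 11.0 and 15.5 CPM. Slow-fibre levels were lower in the Vehicle libraries too (above), and with the slow-fibre level as a covariate the list median was -0.04, and without Chow 17 and Chow 19 it was -0.14. It was -0.23 without Vehicle 15 and -0.64 without Vehicle 55.

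Clock genes lay on both sides of Chow. None of the 16 core clock genes passed edgeR's adjusted threshold, but 8 were at an unadjusted p under 0.05, of which 4 lay higher and 4 lower, and in 9 the groups did not overlap (5 higher and 4 lower). Over all genes tested 7.72% had such a p and 13.2% did not overlap. The activators Arntl, Npas2 and Clock were lower, and the repressors Per2, Per3 and Cry1 were higher. Among the 13 tested clock output factors 10 were higher in Vehicle, 5 of them at an unadjusted p under 0.05 (2.84% of all genes were higher at such a p), and 0 passed edgeR's adjusted threshold. The list median was 0.34, and 0.19 without Chow 17. It was 0.10 without Chow 17 and Chow 19 together and 0.09 with the slow-fibre level as a covariate.

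Arntl, on chromosome 7 (113207465 to 113314126), stood at 40.1, 29.0 and 37.1 CPM in Chow, 25.9, 23.8 and 17.5 CPM in HFD and 14.4, 14.2 and 8.89 CPM in Vehicle. The 3 groups did not overlap, with HFD between the others (Vehicle minus Chow -1.50 ± 0.21, edgeR adjusted p = 0.0507). It passed in 5 of 13 alternatives, among them DESeq2 and the fit without Vehicle 55. Npas2, a partner of ARNTL, was at 0.96 to 1.53 CPM in Chow against 0.17 to 0.60 CPM in Vehicle (-1.88 ± 0.51, adjusted p = 0.356).

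The period genes Per2 and Per3 stood the other way. Per1, named after its values were seen, was not among the 8 core clock genes at an unadjusted p under 0.05. In Vehicle against HFD Per1 was lower and passed edgeR's adjusted threshold, and 1 other core clock gene passed and was higher. Over all genes 0.989% passed there as lower and 0.526% as higher. Per2 stood at 7.16, 12.8 and 11.0 CPM in Chow, 14.3, 17.9 and 18.8 CPM in HFD and 26.5, 16.6 and 35.7 CPM in Vehicle, so Chow lay below both groups on the high-fat diet (Vehicle minus Chow 1.34 ± 0.31, edgeR adjusted p = 0.292). Per3, whose gene overlaps Camta1 on the same strand, stood at 11.6, 12.9 and 17.3 CPM in Chow, 19.7, 24.1 and 22.2 CPM in HFD and 22.9, 24.0 and 31.5 CPM in Vehicle (0.91 ± 0.19, adjusted p = 0.216). Named after their values were seen, the cryptochrome Cry1 (log2 fold change 0.64) was higher without overlap, and Clock (-0.43) and the repressor Nr1d1 (-1.29), which overlaps Thra on the other strand, were lower.

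Among the outputs, Dbp, whose gene overlaps Sphk2 on the other strand, stood at 13.2, 24.4 and 23.7 CPM in Chow against 37.0, 38.1 and 41.2 CPM in Vehicle (0.92 ± 0.22, edgeR adjusted p = 0.269). Tef was at 181, 178 and 160 CPM and at 255, 220 and 237 CPM (0.45 ± 0.15, adjusted p = 0.503). Hlf and Wee1, a cell cycle kinase under clock control, had log2 fold changes of 0.69 and 0.75. All 4 had Vehicle libraries above every Chow library. In HFD against Chow the same 4 had changes of 0.19 (Dbp), 0.29 (Tef), 0.39 (Hlf) and 0.90 (Wee1), and 0 of them passed.

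**Figure D3:**
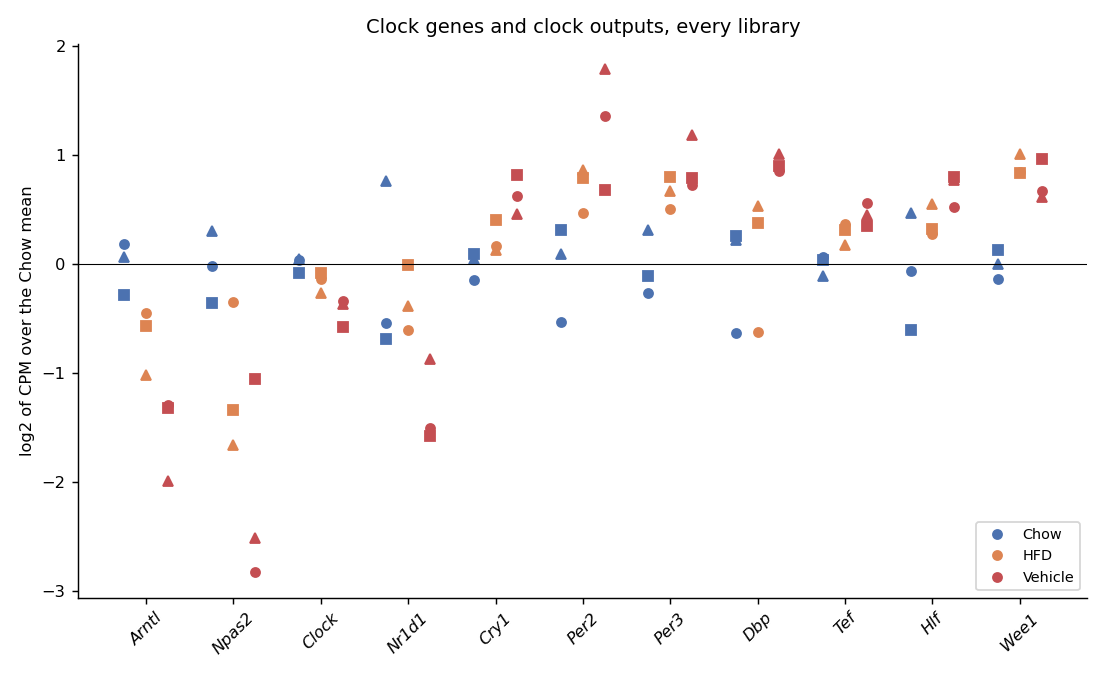
Log2 of the CPM of each library over the mean of the Chow libraries for 11 clock genes and outputs, with 1 point per library and the group in colour. Arntl, Npas2, Clock and Nr1d1 lie below 0 in all Vehicle libraries and the other 7 genes above 0, with Arntl at 14.4, 14.2 and 8.89 CPM.

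The promoters of 3 of the higher genes hold the letters that clock factors are known to bind, and they are printed to show them. CACGTG (E-box, bound by ARNTL with CLOCK or NPAS2) and TTATGTAA (D-box, bound by DBP, TEF and HLF) were searched on both strands in the 250 bases before each RefSeq start site of GRCm38.p6. Of 32851 such windows 6.02% hold the E-box letters and 0.819% the D-box letters. Capitals mark the matches, which lie at -205 and -158 in Per3, at -60 in Cry1 and at -127 in Tef, counted from the start site with -1 as the base before it. Windows were found for 12 of the 16 core clock genes, 3 of them with the E-box, and for 10 of the 14 output factors, 3 of them with the E-box. The E-box letters also lay at -42 in Fbp2, which rose, and at -191 of 1 start site of Maff, which fell. Windows of Dbp and Hlf, which were higher, held neither motif. Those of Arntl, Npas2, Clock and Nr1d1, which were lower, held neither as well. Whether the letters go with the direction of change was not tested. A match describes these letters and is no measurement of binding.
Per3 (chr4:151044666-151044915, minus strand): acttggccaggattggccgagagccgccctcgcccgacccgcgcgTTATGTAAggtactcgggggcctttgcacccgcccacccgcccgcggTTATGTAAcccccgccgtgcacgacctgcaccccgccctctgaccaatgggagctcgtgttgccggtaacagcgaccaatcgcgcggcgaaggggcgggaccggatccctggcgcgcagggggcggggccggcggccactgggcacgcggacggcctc
Cry1 (chr10:85185055-85185304, minus strand): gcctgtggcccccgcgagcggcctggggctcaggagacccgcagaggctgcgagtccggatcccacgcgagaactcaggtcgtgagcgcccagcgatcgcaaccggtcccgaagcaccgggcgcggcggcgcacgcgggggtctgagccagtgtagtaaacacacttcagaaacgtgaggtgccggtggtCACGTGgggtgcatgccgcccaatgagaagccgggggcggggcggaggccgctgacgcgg
Tef (chr15:81802423-81802672, plus strand, first start site): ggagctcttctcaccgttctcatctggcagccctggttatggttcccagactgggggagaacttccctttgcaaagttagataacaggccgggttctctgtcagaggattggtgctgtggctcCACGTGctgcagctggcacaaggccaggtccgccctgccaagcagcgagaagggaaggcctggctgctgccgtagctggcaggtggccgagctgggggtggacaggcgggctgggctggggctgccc

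Genes of fuel choice lay on both sides of Chow. Pdk4, the kinase that blocks glucose oxidation, stood at 3008, 3105 and 2973 CPM in Chow, 2001, 2068 and 1660 CPM in HFD and 1162, 1089 and 1575 CPM in Vehicle. The groups did not overlap, with HFD in the middle. The difference between Vehicle and Chow was -1.25 ± 0.20 (edgeR adjusted p = 0.117), and Vehicle against HFD was -0.58 ± 0.20 (adjusted p = 0.15), neither past the threshold. The whole list of 45 fatty acid uptake and oxidation genes was split, with 25 higher and 20 lower and a median of 0.04, which ran from -0.35 without Vehicle 55 to 0.27 without Vehicle 15. Ucp3, a mitochondrial carrier induced by fatty acids, was at 320 to 376 CPM in Chow against 287 to 313 CPM in Vehicle (-0.22, adjusted p = 0.793).

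Of 33 genes of glucose uptake, glycolysis and glycogen, 22 were lower, with a median of -0.14 (0.02 without Vehicle 55), 6 at an unadjusted p under 0.05, where 4.88% of all genes were lower at such a p, and 0 past edgeR's threshold. Hk2, the hexokinase that traps glucose in muscle, stood at 581, 350 and 678 CPM in Chow, 365, 369 and 368 CPM in HFD and 250, 248 and 289 CPM in Vehicle (Vehicle minus Chow -1.03 ± 0.24, edgeR adjusted p = 0.258). Pfkfb3, which makes an activator of phosphofructokinase, had a log2 fold change of -0.91. Slc2a4, the insulin-responsive transporter GLUT4, was at 276 to 295 CPM in Chow against 225 to 279 CPM in Vehicle, which overlapped (-0.14 ± 0.15, adjusted p = 0.853).

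Of 29 tested insulin signalling genes 18 were lower, and the median was -0.11 (-0.02 without Chow 19 and -0.22 without Vehicle 55). Pik3r1, the regulatory subunit of PI 3-kinase, stood at 66.8, 73.8 and 51.1 CPM in Chow against 123, 96.6 and 131 CPM in Vehicle (0.87 ± 0.18, edgeR adjusted p = 0.203). Irs2, an insulin receptor substrate, was at 141, 59.9 and 154 CPM and at 61.5, 42.6 and 63.9 CPM, with Vehicle 15 and Vehicle 55 above Chow 17. Glucocorticoid targets were mixed, with 12 of 30 higher. Fkbp5, a cochaperone of the glucocorticoid receptor, was at 72.7 to 82.6 CPM in Chow, 90.6 to 117 CPM in HFD and 92.2 to 102 CPM in Vehicle (Vehicle minus Chow 0.37, HFD minus Chow 0.41). Cdkn1a, a cell cycle inhibitor and FoxO target, stood at 17.4, 8.85 and 22.9 CPM in Chow against 7.59, 7.76 and 5.42 CPM in Vehicle (-1.25 ± 0.33, adjusted p = 0.386), and passed in Vehicle against HFD (-1.07 ± 0.19, edgeR adjusted p = 0.0356).

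Most genes of the ribosome, proteasome and autophagy lists stood above Chow by small amounts. The list of atrophy ubiquitin ligases and FoxO targets did not, with 11 of 26 higher and 15 lower. Its median was -0.08, and 0.005 without Chow 19. Of these 26 genes 4 were lower at an unadjusted p under 0.05, as were 4.88% of all genes, and 0 passed edgeR's threshold. Of 76 tested genes of the cytosolic ribosome 73 were higher in Vehicle, where 49.1% of all genes were, with a median of 0.21. Only 2 had an unadjusted p under 0.05, where 2.84% of all genes were higher at such a p, and 0 passed edgeR's threshold. Fau was at 22.7 to 29.4 CPM in Chow against 29.9 to 34.5 CPM in Vehicle (0.34 ± 0.15). HFD against Chow gave 76 of 76 lower, against 51% of all genes, with a median of -0.38, and in the direct test of Vehicle against HFD all 76 were higher (49.9% of all genes were), 32 of them past the threshold (0.526% of all genes), with a median of 0.62. Fau was at 18.0, 22.8 and 21.2 CPM in HFD. Ribosomal protein genes have many processed pseudogenes, so counts of single members are uncertain, and the median in Vehicle against Chow ranged from 0.07 without Chow 19 to 0.35 without Chow 17. Fold changes also moved with exonic length over the genes tested in Vehicle against Chow, put in 5 groups by length. From the shortest group (median 1.69 kb) to the longest (10.1 kb), the median ran from 0.05 to -0.06 in Vehicle against Chow. In HFD against Chow it ran from -0.13 to 0.10. The part of gene length in the list medians of this report was not tested.

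Of 31 proteasome subunits 29 were higher in Vehicle than in Chow (median 0.23, and 0.11 without Chow 19), and 9 did not overlap in that direction, where 5.97% of all genes did. Psma7, a subunit of the catalytic core, stood at 37.6, 45.9 and 34.4 CPM in Chow, 32.5, 30.9 and 32.7 CPM in HFD and 48.1, 61.3 and 48.0 CPM in Vehicle. It passed in Vehicle against HFD (0.71 ± 0.13, edgeR adjusted p = 0.0407) and not in Vehicle against Chow (0.42 ± 0.16, adjusted p = 0.606). Of 33 autophagy genes 23 were higher, among them Map1lc3a, a coat protein of autophagosomes, at 49.4 to 62.0 CPM in Chow against 68.7 to 87.3 CPM in Vehicle (0.51 ± 0.15, adjusted p = 0.461). Gabarapl1, of the same protein family, stood the other way at 88.3, 108 and 87.6 CPM in Chow against 40.7, 37.0 and 69.0 CPM in Vehicle (-0.95 ± 0.24, adjusted p = 0.294).

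The median of the 78 nuclear genes of oxidative phosphorylation was -0.14 in Vehicle against Chow, and 61 were lower with 0 at an unadjusted p under 0.05. In HFD against Chow the median was -0.39 with 78 of 78 lower, and Vehicle against HFD gave 72 of 78 higher with a median of 0.27. The median of Vehicle against Chow was -0.26 without Chow 19 and 0.09 without Chow 17, so its sign rested on single libraries. Of 12 genes of the mitochondrial genome 11 were lower with a median of -0.49, which was -0.22 without Chow 17. It was -0.18 without Chow 17 and Chow 19 together and -0.09 with the slow-fibre level as a covariate. Among them mt-Nd6, a subunit of complex I, stood at 181, 210 and 276 CPM in Chow against 125, 130 and 131 CPM in Vehicle (-0.79 ± 0.18, edgeR adjusted p = 0.255), and mt-Nd5 was at 4066, 3974 and 10460 CPM and at 2528, 2320 and 4193 CPM. The mitochondrial genome gave 12.7% to 20.5% of the counts of these 6 libraries.

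**Figure D4:**
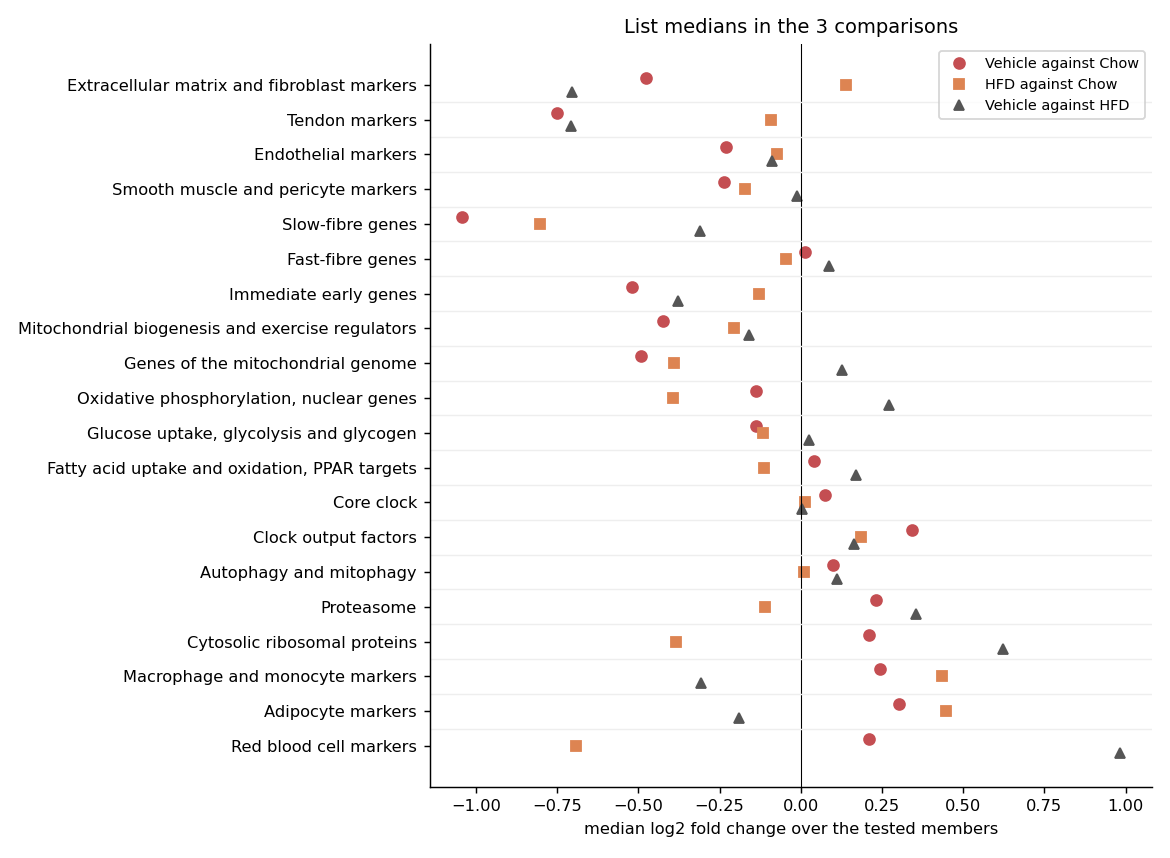
Median log2 fold change over the tested members of 20 gene lists in Vehicle against Chow (circles), HFD against Chow (squares) and Vehicle against HFD (triangles). The first pair of comparisons shares the Chow libraries and each other pair shares a group too, and matrix markers stand at -0.48, 0.14 and -0.71 in that order.

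Among antioxidant genes, 14 of 25 were higher and 11 lower. Srxn1, which repairs peroxiredoxins, stood at 57.1, 74.3 and 84.9 CPM in Chow against 32.0, 25.7 and 47.5 CPM in Vehicle (-1.04 ± 0.24, edgeR adjusted p = 0.269). Gclc, the rate-limiting enzyme of glutathione synthesis, was at 15.7 to 21.5 CPM and at 10.2 to 13.2 CPM (-0.70 ± 0.17). The plasma glutathione peroxidase Gpx3 was at 81.1 to 92.5 CPM in Chow, 42.5 to 70.0 CPM in HFD and 91.2 to 132 CPM in Vehicle, and passed in Vehicle against HFD (1.06 ± 0.20, edgeR adjusted p = 0.0452).

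Of 28 growth factor and IGF genes 16 were higher and 12 lower. Igfbp6, a binding protein of IGF2, stood at 18.8, 22.1 and 15.5 CPM in Chow against 10.02, 8.79 and 8.84 CPM in Vehicle (-1.03 ± 0.17, edgeR adjusted p = 0.117). Inhba, a subunit of activin A, was at 0.65 to 1.36 CPM in Chow against 0.16 to 0.22 CPM in Vehicle (-2.37 ± 0.51, adjusted p = 0.216). The groups of both genes did not overlap. Of 21 potassium channel and sodium pump genes 14 were lower, 6 at an unadjusted p under 0.05 (4.88% of all genes were lower at such a p) and 0 past edgeR's threshold. The median was -0.29, and -0.12 without Vehicle 23, -0.16 without Chow 19 and -0.03 without Chow 17 and Chow 19. Kcnj2, an inward rectifier, was at 77.9 to 93.6 CPM in Chow, 43.4 to 71.5 CPM in HFD and 53.4 to 71.4 CPM in Vehicle. Kcnq5 was at 24.5 to 43.2 CPM and at 25.7 to 40.4 CPM in Chow and Vehicle (-0.04, adjusted p = 0.979).

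Fast-fibre genes were even, with 7 of 14 higher and a median of 0.01. All 6 tested slow-fibre genes were lower in Vehicle, and 0 passed edgeR's threshold. Of them 2 had an unadjusted p under 0.05, where 4.88% of all genes were lower at such a p. The list median was -1.04. That median was -2.13 without Vehicle 55, -0.57 without Vehicle 15, -0.65 without Chow 19 and 0.02 without Chow 17 and Chow 19 together. Ankrd2, a stretch-responsive protein of slow fibres, stood at 137, 388 and 412 CPM in Chow against 10.4, 60.4 and 95.9 CPM in Vehicle. Tpm3, slow tropomyosin, was at 16.0, 86.8 and 85.8 CPM and at 10.2, 15.1 and 28.7 CPM, so its difference lay in Chow 17 and Chow 19, and without that pair it was 0.17. The slow myosin gene Myh7 and 8 other slow-fibre genes were not analysed here.

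None of the tested endothelial, smooth muscle and macrophage markers passed edgeR's threshold. Of 16, 11 and 19 tested, 2, 4 and 1 had an unadjusted p under 0.05, as did 7.72% of all genes. All 16 endothelial markers were lower (median -0.23, from -0.43 without Vehicle 55 to -0.07 without Vehicle 15), as in Kdr, a VEGF receptor, at 14.1 to 18.6 CPM in Chow against 8.25 to 13.7 CPM in Vehicle. Of 11 smooth muscle and pericyte markers 8 were lower (median -0.24, and 0.04 without Chow 19), and Myh11 was at 36.2 to 42.6 CPM and at 22.3 to 34.1 CPM. Of 19 macrophage markers 16 were higher (median 0.25, and 0.06 without Chow 19), with Lgals3, galectin-3, at 2.85, 2.31 and 1.30 CPM in Chow against 2.55, 5.91 and 3.20 CPM in Vehicle. Neutrophil and lymphocyte markers had 1 member each above the expression filter.

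Adipocyte markers differed widely within each group. Lep, leptin, stood at 32.7, 14.0 and 0.96 CPM in Chow, 18.2, 23.0 and 76.1 CPM in HFD and 11.3, 31.9 and 37.6 CPM in Vehicle, and Adipoq, adiponectin, at 35.2, 17.1 and 0.91 CPM in Chow against 5.50, 24.4 and 25.2 CPM in Vehicle. The groups overlapped for both genes (log2 fold changes 0.79 ± 1.06 and 0.07 ± 1.13). Of 20 tested adipocyte markers 16 were above 0 with a median of 0.30 (0.70 without Vehicle 15 and -0.05 without Vehicle 55), and their mean log2 CPM ran from 1.67 to 3.89 in Chow and from 2.55 to 4.32 in Vehicle. All 8 red blood cell genes were higher, at a median of 0.21, which was -0.69 without Vehicle 55, in which Hba-a1 stood at 44.2 CPM against 9.04 and 14.9 CPM in the other Vehicle libraries.

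The last question was which differences between HFD and Chow were also seen between Vehicle and Chow. It was asked of 16 genes that had been named in HFD against Chow for their low p there. Because both comparisons use the same Chow libraries, a like direction is no independent evidence, and in HFD against Chow, where 12.8% of all genes had groups that did not overlap, the values describe the choice. Of the 16, 14 were tested in Vehicle against Chow: 6 were higher and 8 lower. There 9 had an unadjusted p under 0.05, as did 7.72% of all genes, and 0 passed edgeR's adjusted threshold. In 7 the groups did not overlap, 3 higher and 4 lower, where 13.2% of all genes did not overlap in that comparison.

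Among the genes chosen for being higher in HFD, 3 were also above Chow in all Vehicle libraries. Stxbp4, which holds GLUT4 vesicles back from fusion, stood at 11.2, 9.75 and 11.2 CPM in Chow, 19.0, 18.0 and 17.0 CPM in HFD and 22.9, 22.2 and 15.2 CPM in Vehicle, with log2 fold changes over Chow of 0.76 and 0.91. Cep85l, a centrosome protein, stood at 118, 145 and 132 CPM in Chow, 207 to 251 CPM in HFD and 169 to 253 CPM in Vehicle (0.80 and 0.69). Cdc14a, a phosphatase, was at 21.0 to 22.8 CPM in Chow, 35.8 to 43.5 CPM in HFD and 26.0 to 38.6 CPM in Vehicle, and its change over Chow was smaller in Vehicle (0.47) than in HFD (0.83), a difference that was not tested.

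Of the genes chosen for being lower in HFD, Pdk4, Gabarapl1 and Perm1 (above) were lower in Vehicle without overlap, as was Pank1. Vegfa, the angiogenic factor, stood at 180, 106 and 142 CPM in Chow, 70.5 to 92.9 CPM in HFD and 70.9, 72.6 and 107 CPM in Vehicle, with log2 fold changes of -0.78 and -0.77. Vehicle 55 overlapped Chow 17 there. Pank1, a kinase of coenzyme A synthesis, was at 32.0 to 38.9 CPM in Chow, 19.6 to 23.4 CPM in HFD and 11.2, 9.39 and 27.8 CPM in Vehicle. Acot2, a mitochondrial thioesterase, was at 39.4 to 49.5 CPM in Chow, 18.5 to 30.2 CPM in HFD and 19.6, 21.0 and 61.5 CPM in Vehicle, so Vehicle 55 lay above every Chow library while the others lay below. C7, a complement component, was at 8.66 to 12.8 CPM, 3.36 to 5.35 CPM and 4.23 to 9.85 CPM.

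Of the other genes chosen for being higher in HFD, Mdga1, Mki67 and Fat3 had Vehicle libraries in or near the range of Chow. The HFD libraries that chose them also enter Vehicle against HFD, so a lower value in Vehicle is favoured by the choice, and their differences are given as a description. Mdga1, a cell adhesion protein, stood at 6.68, 4.75 and 5.89 CPM in Chow, 11.8, 13.2 and 15.2 CPM in HFD and 4.98, 3.96 and 4.99 CPM in Vehicle (Vehicle minus HFD -1.53). Mki67, a marker of dividing cells, was at 0.41 to 0.79 CPM, 2.02 to 5.46 CPM and 0.52 to 0.92 CPM (-2.29). Fat3, an atypical cadherin, was at 1.80 to 2.93 CPM, 5.33 to 8.19 CPM and 1.79 to 3.25 CPM (-1.49). Asb15, a ubiquitin ligase adaptor of muscle, was at 37.2 to 45.2 CPM in Chow, 69.9 to 110 CPM in HFD and 44.1, 28.0 and 90.5 CPM in Vehicle. Its Vehicle libraries spanned the range from below Chow into HFD.

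Top2a, a topoisomerase of dividing cells, and Itgad, an integrin of macrophages in fat, fell below the expression filter of Vehicle against Chow. Top2a had 10 counts over the 3 Chow libraries, 74 over HFD and 15 over Vehicle. Itgad had 0 counts in Chow, 78 in HFD and 29 in Vehicle, of which 25 came from Vehicle 23.

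**Figure D5:**
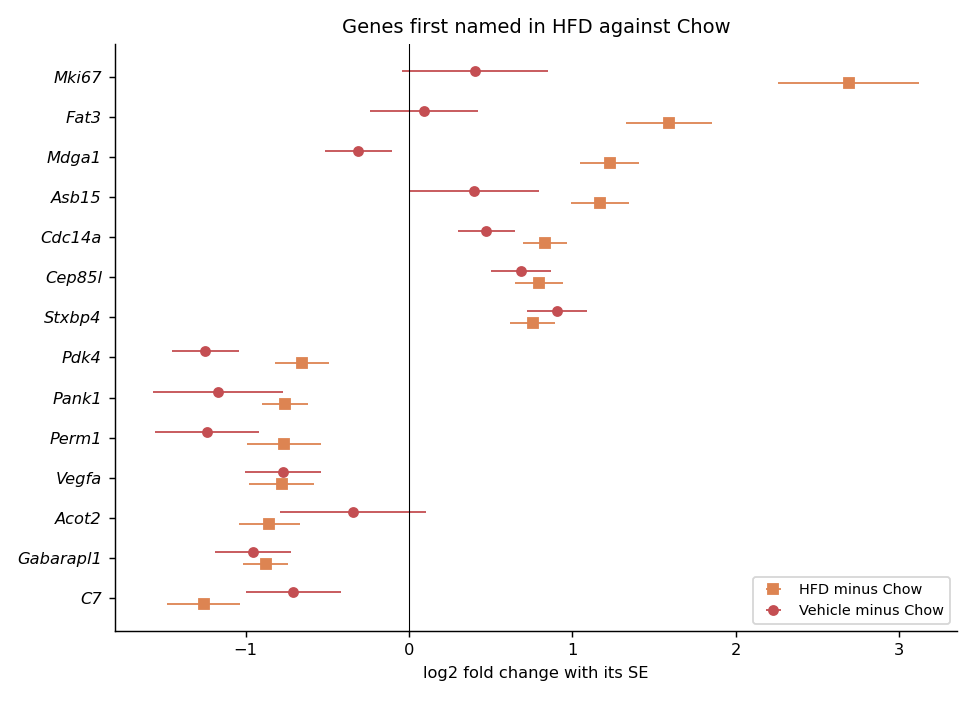
Log2 fold changes with their SE for the 14 genes of this set, for HFD minus Chow (squares, the comparison they were chosen on) and Vehicle minus Chow (circles). Stxbp4, Cep85l, Vegfa and Gabarapl1 have both values close together, and Mki67 stands at 2.69 and 0.40.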

How the data were processed

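Per the labels' protocols, RNA was taken from muscle pieces with RNAzol RT, cleared of DNA with DNase and made into Illumina libraries. The values deposited by the authors are unnormalised counts for each Ensembl identifier, in 1 table with the Chow and HFD libraries and 1 with the Vehicle and PCN libraries. Per the submitters' processing notes, the tools were HISAT2, HTSeq and DESeq2, and the builds named are GRCm38 and mm10. The sources used here give neither their versions nor their settings, the strand setting of the counting included, so reads of overlapping genes on the 2 strands cannot be told apart and near-identical copies may share or lose reads.

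The tables were joined on the Ensembl identifier. Of 24453 and 24093 genes, 21976 were in both, and genes in 1 table only were not used. For each pair of groups, edgeR 4.0.16 (R 4.3.3) was run on those 6 libraries alone (TMM normalisation, filterByExpr with a minimum count of 10, robust quasi-likelihood F test), with Benjamini-Hochberg adjustment over all genes tested at 0.05. The SE is taken from the test, as the size of the log2 fold change over the root of its F value. CPM levels use 1 TMM scaling over all 12 libraries, and groups do not overlap where the CPM ranges are apart. Lists are described by counts and medians, with no set test. The compared libraries and the lists were chosen with earlier results of these data known. Named genes are those that passed, average 1 CPM or more and show no overlap (up to 15 in each direction), up to 4 members of lowest p of each list described, the 16 genes first named in HFD against Chow, and Lep, Adipoq, Pdk4, Ucp3, Slc2a4, Fkbp5, Myh7, Kcnq5 and Cyp3a11 (not analysed here). Others are said to be named after their values were seen. Some genes of the lists are not reported here by name. The alternatives tried were DESeq2 1.42.0, its size factors within edgeR, other filters, all 12 libraries in 1 fit, a threshold of 0.1, a slow-fibre covariate, and libraries left out. The fits were first tested on simulated counts of Vehicle against Chow, with 100 genes changed 2-fold and 100 changed 4-fold. There edgeR recovered 72% and 99% of them, and 5.52% of its calls were false. DESeq2 recovered 79% and 99%, and 11.9% of its calls were false. The changed genes were drawn from the better expressed genes only. Each gene was simulated on its own, so the differences that many genes share between libraries of a group were absent. How far these rates hold for the real libraries was not tested.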

Additional observations from a re-analysis of the deposited data

How the results depend on the processing

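The number of genes past the threshold moved with most choices. In Vehicle against Chow (5 as reported) it was 10 at an adjusted p of 0.1 or with the slow-fibre level as a covariate, 2 with all 12 libraries in 1 fit or a minimum count of 30, 9 with DESeq2 size factors, 75 with no expression filter and 96 with DESeq2. It ran from 0 to 26 with 1 library left out, and over these left-out counts from 0 to 245 in HFD against Chow and from 0 to 1180 in Vehicle against HFD. HFD against Chow (0 as reported, 984 at an unadjusted p under 0.05 in edgeR) gave 40 calls with DESeq2 and 46 with no filter. Vehicle against HFD (193 as reported) gave 564 at an adjusted p of 0.1, 587 with DESeq2, 571 with no filter and 0 with all 12 libraries in 1 edgeR fit (1708 at an unadjusted p under 0.05). The cause of these changes was not tested.

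Of 79 named genes that were refitted in the alternatives, 71 kept 1 direction in every alternative. With 1 library left out in turn the log2 fold change of Adipoq ran from -0.50 to 1.04, Fat3 from -0.23 to 0.33, Asb15 from -0.20 to 0.71, Hba-a1 from -0.45 to 0.86 and Kcnq5 from -0.23 to 0.17. Without Chow 17 and Chow 19 Adipoq turned to -0.94, Fat3 to -0.33, Lep to -0.28 and Tpm3 to 0.17. With the slow-fibre covariate Acot2 turned to 0.028 and Kcnq5 to 0.043. Of 44 list medians 16 kept 1 sign in all 13 alternatives, those of the matrix, tendon, immediate early, biogenesis, proteasome, ribosome and clock output lists among them, and 28 did not. No paired analysis was possible because each library number belongs to 1 library only. Depth limits the genes of low counts: Top2a, with 10 counts over the Chow libraries, and Itgad, with 0, were below the expression filter and were not tested in Vehicle against Chow.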

Other observations

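Of 18 tested genes of drug metabolism and the pregnane X receptor, 11 were higher in Vehicle than in Chow with a median of 0.17 (-0.01 without Vehicle 55). None passed edgeR's adjusted threshold, and 3 had an unadjusted p under 0.05, as did 7.72% of all genes. Alas1, the rate-limiting enzyme of heme synthesis, was at 108, 142 and 123 CPM in Chow against 69.7, 85.2 and 79.0 CPM in Vehicle, without overlap (-0.67 ± 0.16, edgeR adjusted p = 0.269). Of 13 tested inflammatory and acute-phase genes 12 were lower, with a median of -0.23 (-0.13 without Chow 19). Il1r1, the receptor of interleukin-1, was at 13.8, 13.3 and 17.7 CPM in Chow against 8.80, 9.55 and 8.41 CPM in Vehicle, while Lcn2, lipocalin-2, was the 1 member above Chow at 3.66, 1.54 and 6.12 CPM and 9.79, 12.2 and 7.81 CPM. Il6, Il1b and Tnf were below the expression filter.

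Interferon-stimulated genes had 16 of 21 lower (median -0.21, -0.02 without Chow 19 and 0.27 without Chow 17 and Chow 19 together), with Rsad2, an antiviral enzyme, at 1.71 to 2.37 CPM in Chow and 1.04 to 1.41 CPM in Vehicle. Among genes of the neuromuscular junction, Chrnb1, a subunit of the acetylcholine receptor, was at 7.38 to 8.83 CPM in Chow, 10.6 to 14.0 CPM in HFD and 11.2 to 13.5 CPM in Vehicle, and Runx1, a factor induced by denervation, was at 4.55 to 13.0 CPM in Chow and 2.50 to 4.28 CPM in Vehicle. Cdh15, the cadherin of satellite cells, was at 15.2 to 16.4 CPM in Chow, 14.3 to 16.9 CPM in HFD and 18.5 to 25.7 CPM in Vehicle. Of these genes none passed edgeR's adjusted threshold, and their median changes over all members were near 0 for the neuromuscular junction (0.04) and the satellite cell list (-0.01).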
